A study of Mus musculus with 12 samples.

Results

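The response of mouse liver to dexamethasone was described over both genotypes of the series, using the 6 arrays whose titles name dexamethasone treatment and the 6 whose titles name no treatment, which together are all 12 of the 12 arrays. The change with treatment was estimated once per gene with genotype held constant, so it is the average of the response in wild-type and in HESKOL liver. Total RNA from liver was measured with 1 array per mouse, in 4 groups of 3 mice: wild type untreated, wild type treated, HESKOL untreated and HESKOL treated. All were male C57BL/6 mice of 8 to 10 weeks, and all had been adrenalectomized, so the untreated animals lacked their own adrenal glucocorticoids. The treated mice had been given 1 mg/kg of dexamethasone intraperitoneally, with liver taken after 6 hours; no vehicle injection is described for the untreated mice. The labels do not expand the name HESKOL or state a promoter or Cre line, and the title of the series names Hes1, a transcriptional repressor of the Notch pathway.

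Glucocorticoids such as dexamethasone enter cells and bind the glucocorticoid receptor (Nr3c1), which moves to the nucleus, binds palindromic response elements in DNA and raises or lowers transcription. In liver the receptor is known for raising genes of glucose production, amino acid breakdown and metal binding, and for damping inflammatory transcription. Some of its targets, among them Dusp1, Nfkbia and Tsc22d3, are themselves inhibitors of inflammatory signalling.

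Levels are given throughout as the log2 of a gene's signal minus the log2 of the 75th percentile of its array, so a level of 0 is that percentile; a level of one gene cannot be set against that of another. Changes are log2 changes, treated minus untreated, with the standard error of the fit over 6 treated and 6 untreated arrays. The number of arrays limits the precision. The 75th percentile of the processed signal ran from 896.7 to 1614.4 over the arrays, and 62.2% to 72.3% of spots were well above background. The 13 tested hepatocyte markers had a mean level of 6.79 to 7.67 over the arrays, and the 17 tested T and B lymphocyte markers one of -4.56 to -2.50. Hes1 read -1.49, -1.22 and -1.90 on the wild-type untreated arrays and -2.46, -2.40 and -3.09 on the HESKOL untreated arrays; on the treated arrays it read -1.17, -2.57 and -2.92 in wild type and -3.08, -3.02 and -3.86 in HESKOL. The 3 slides of 4 arrays were not balanced over treatment: 4 untreated arrays shared slide 1, 4 treated arrays shared slide 3, and slide 2 carried wild-type treated replicates 1 and 2 beside replicates 2 and 3 of the HESKOL untreated group. Wild-type treated replicate 1 stood apart from the other treated arrays: on the first principal component (38.4% of the variance) it lay at -35.8, among the untreated arrays (-74 to -7.9), while the other 5 treated arrays lay between 29.6 and 86.1.

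Dexamethasone changed 2012 of 18650 tested genes at an adjusted p under 0.05, which is 10.8% of them: 901 rose (4.83%) and 1111 fell (5.96%). The shares of 4.83% and 5.96% are those to set beside each count of list members below. The median change was 1.06 among the genes that rose and -1.07 among those that fell, against -0.007 over all genes tested. Of the genes that rose, 486 changed at least 2-fold and 41 at least 8-fold; of those that fell, 621 and 10 did so. The 6 treated arrays lay wholly above or wholly below the 6 untreated arrays in 725 of the called genes, and in 805 of all tested genes (4.32%). With slide added to the model as a block, no gene passed (951 had an unadjusted p under 0.05), the median standard error of the called genes went from 0.245 to 0.493, and 878 of 901 and 1059 of 1111 kept their sign, with median changes of 0.724 and -0.618. On slide 2 alone, where 2 treated wild-type arrays met 2 untreated HESKOL arrays and treatment cannot be told apart from genotype, 869 of the 901 and 1079 of the 1111 had the same sign. These 4 arrays are among the 12 that gave the calls, so this is in part built in. The model with the slide block also compares treatments only within slide 2, since slides 1 and 3 each held 1 treatment. Wild-type treated replicate 1 is 1 of the 2 treated arrays there, so every value with the slide block leans on it. Without wild-type treated replicate 1, 4330 genes passed (23.1%), among them 2009 of the 2012. Leaving out other arrays lowered the count, to 1208 without wild-type untreated replicate 1, 999 without wild-type treated replicate 3, 827, 881 or 1044 when 1 of the untreated HESKOL mice (replicates 1, 2 and 3 in turn) was left out, and 1070, 946 or 970 when 1 of the treated HESKOL mice was; without wild-type untreated replicates 2 and 3 or wild-type treated replicate 2 it was 1429, 1865 and 1509.

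Both genotypes moved the same way. All 2012 called genes had the same sign of change in wild type and in HESKOL, which is in part how a common change comes to be called; over all tested genes 13070 (70.1%) did. The change was at least 1 in each genotype for 312 of the genes that rose and at most -1 in each for 335 of those that fell. The median change of the genes that rose was 0.865 in wild type and 1.22 in HESKOL, and of those that fell -0.821 and -1.30; the response was larger in HESKOL for 665 of 901 and 914 of 1111 genes. Wild-type treated replicate 1 enters only the wild-type value. Tested on their own, 37 genes passed in wild type (0.198%) and 1459 in HESKOL (7.82%); of the 2012, 32 were among the former, 1037 among the latter, 29 in both and 972 in neither. Across genes, which are not independent replicates, the changes of the 2 genotypes had a Pearson correlation of 0.586 and a Spearman correlation of 0.555; no array is shared between them, but slides are.

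**Figure D1:**
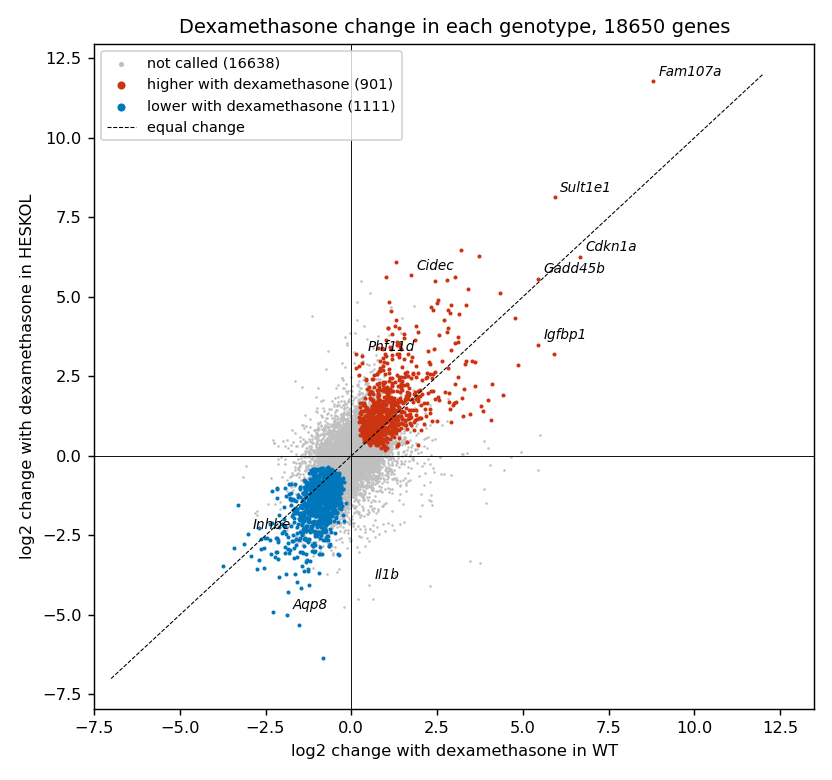
Log2 change with dexamethasone in wild type (horizontal axis) against that in HESKOL (vertical axis) for the 18650 tested genes, 1 point per gene. The 901 genes called higher all lie above and to the right of 0, and the 1111 called lower below and to the left of it; the dashed line marks equal change.

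The highest fitted change belonged to Fam107a, an actin-binding protein known to respond to stress and glucocorticoids. Its level ran from -9.6 to -6.71 (median -8.4) on the untreated arrays, where it was well above background on only 1, and from -1.9 to 3.14 (median 2.88) on the treated arrays. The groups did not overlap, and the lowest treated value was that of wild-type treated replicate 1, with the other 5 treated arrays at 2.35 or above. The fitted change was 10.29 ± 0.83 (adjusted p = 9.41e-05), and 11.19 without wild-type treated replicate 1. With 5 of 6 untreated values not well above background, its size and its rank are uncertain. Sult1e1, the sulfotransferase that inactivates estrogens, ran from -5.68 to -1.87 (median -3.52) untreated and from 1.63 to 4.36 (median 3.35) treated, a change of 7.03 ± 0.67 (adjusted p = 0.00028). Slc10a6, which carries sulfated steroids into cells, ran from -7.62 to -5.08 (median -6.44) untreated, with 5 of 6 arrays well above background, and from -3.07 to -0.01 (median -1.57) treated, and rose by 4.72 ± 0.52 (adjusted p = 0.000919). No treated array of either gene reached down to an untreated one.

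Cdkn1a, the cell cycle inhibitor p21, ran from -4.35 to -1.88 (median -3.09) untreated and from 2.01 to 3.93 (median 3.38) treated; it rose 88.2-fold (6.46 ± 0.37, adjusted p = 1.02e-05), by 6.66 in wild type and 6.26 in HESKOL. Gadd45b, a growth arrest and stress gene, ran from -2.7 to -1.5 (median -1.79) untreated and from 2.68 to 4.55 (median 3.57) treated (5.51 ± 0.35, adjusted p = 1.68e-05). Here wild-type treated replicate 1 gave the highest treated value, in contrast to Fam107a and Cdkn1a, where it gave the lowest. Gadd45g rose by 3.42 ± 0.51. Ddit4, an inhibitor of the growth kinase complex mTORC1, ran from 1.82 to 3.36 (median 2.27) untreated and from 4.07 to 8.14 (median 7.06) treated (4.31 ± 0.53, adjusted p = 0.00192). Of 18 tested p53-linked and growth arrest genes, 9 rose and none fell, with a median of 1.66 (2.07 in wild type, 0.846 in HESKOL, 1.77 with the slide block). Trp53inp1, a p53 target that promotes cell death, rose by 2.63 ± 0.3. The other 9 of the list were not called, among them Mdm2 (0.12), Bax (0.21), Ccng1 (0.41), Phlda3 (0.37) and Bbc3 (-0.11). None of 22 tested cell cycle genes passed limma's test at the adjusted threshold, although their median was -1.27 and 11 had an unadjusted p under 0.05. Without wild-type treated replicate 1, 4 fell. Their mean level was 0.648 on wild-type untreated replicate 1 and 0.392 on HESKOL untreated replicate 2. On the other untreated arrays it ran from -2.10 to -1.01, which overlaps the treated range of -3.08 to -1.54. Aurka, a mitotic kinase, changed by -1.39 ± 0.49 (adjusted p = 0.086), Tyms, which makes thymidylate, by -0.58 ± 0.18 (adjusted p = 0.06) and Ccne1, a cyclin, by -0.72 ± 0.25 (adjusted p = 0.0798). The probes of Tyms disagreed in sign, with changes from -0.60 to 0.61.

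Igfbp1, a liver-secreted binding protein for insulin-like growth factors, ran from 0.71 to 6.0 (median 4.53) untreated and from 6.69 to 9.0 (median 8.66) treated, and rose by 4.47 ± 0.6 (adjusted p = 0.00277). Ppp1r3g, which targets a phosphatase to glycogen, rose by 3.8 ± 0.83; its untreated arrays ran from -3.37 to -0.03 (median -0.3) and its treated arrays from -0.02 to 4.97 (median 3.96), so the groups nearly met, with 2 wild-type treated arrays close to the untreated range. Lpin1, a phosphatidate phosphatase of lipid synthesis, rose by 3.5 ± 0.56, and Plin4, a lipid droplet coat protein, by 3.7 ± 0.43. Retreg1, a receptor for the turnover of endoplasmic reticulum, ran from 1.01 to 2.03 (median 1.81) untreated and from 3.83 to 5.56 (median 5.25) treated (3.35 ± 0.23, adjusted p = 2.85e-05). Rgs16, a regulator of G-protein signalling, rose by 3.48 ± 0.59, and by 5.03 with the slide block. Both Stmn2, a microtubule regulator known from neurons, and Pcsk1, a prohormone-cleaving protease, were not well above background on any untreated array. Stmn2 was above it on 6 treated arrays and at least 21.0-fold higher (adjusted p = 0.00196), and Pcsk1 was above it on 5 and at least 3.04-fold higher (adjusted p = 0.00601). These bounds set the treated mean against the lowest signal that counted as above background on each untreated array.

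**Figure D2:**
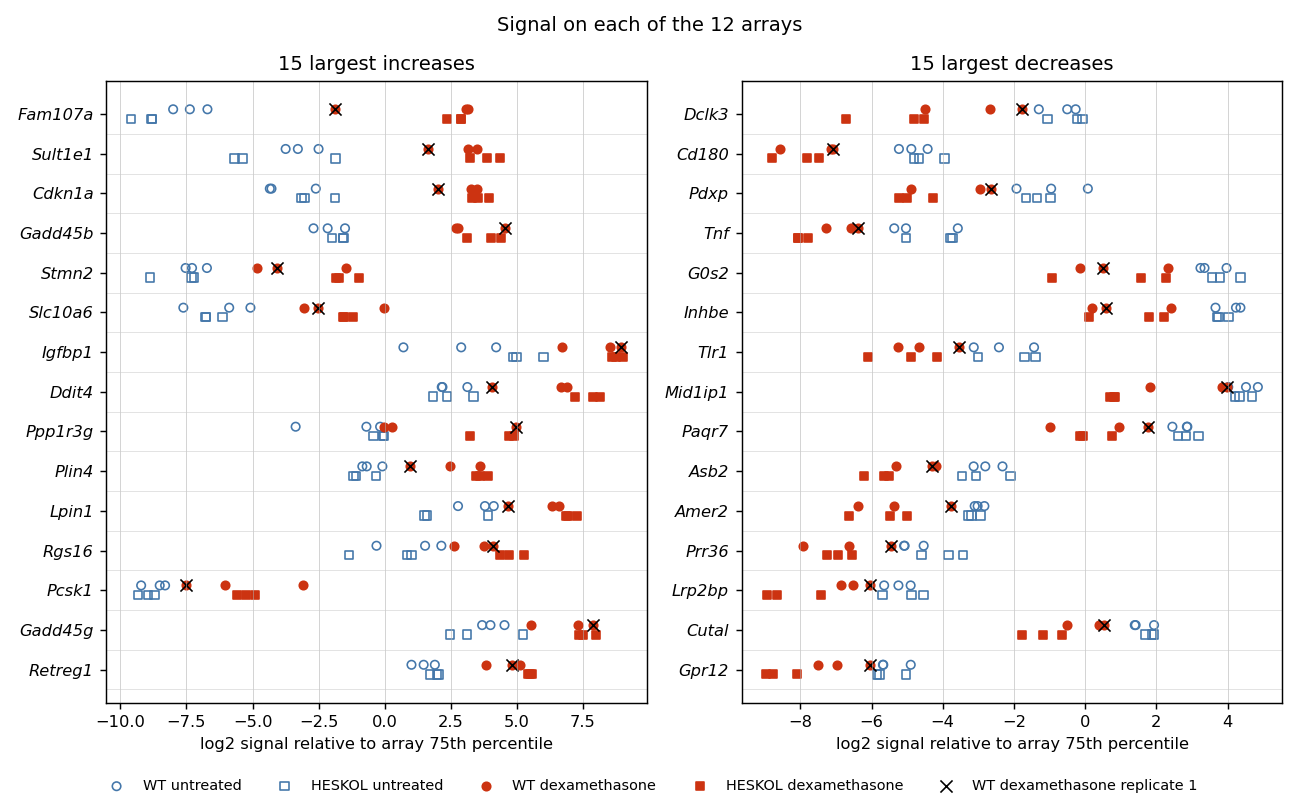
Level of the 15 genes with the largest increases (left) and the 15 with the largest decreases (right) on each of the 12 arrays, as log2 signal relative to the array's 75th percentile; open symbols are untreated arrays, filled symbols treated ones, circles wild type, squares HESKOL, and the cross marks wild-type treated replicate 1. In each gene the 6 filled symbols lie to one side of the 6 open ones, which was a condition for entering the plot.

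Of 26 tested genes listed as targets of the glucocorticoid receptor, 20 rose and none fell, with a median of 2.0 (1.80 in wild type and 2.16 in HESKOL) beside -0.007 over all genes. The list was chosen with earlier results of these data known and holds Fam107a, Sult1e1 and Cdkn1a. Its count, median and mean levels are therefore in part built in. The mean level of the 26 ran from 2.0 to 2.75 (median 2.15) on the untreated arrays and from 4.31 to 5.26 (median 4.96) on the treated ones. Wild-type treated replicate 1 was the lowest treated array at 4.31 and still above every untreated array. Leaving out 1 array left 15 to 22 members called, and with the slide block the median was 1.30. Tat, the aminotransferase that starts tyrosine breakdown, ran from 6.67 to 7.98 (median 7.16) untreated and from 8.55 to 8.96 (median 8.68) treated (1.44 ± 0.19, adjusted p = 0.00277), with 1.49 in wild type and 1.4 in HESKOL. Tdo2, which starts tryptophan breakdown, rose by 1.62 ± 0.34. Dusp1, a phosphatase that switches off stress kinases, ran from 1.08 to 1.46 (median 1.28) untreated and from 3.1 to 4.66 (median 3.53) treated (2.4 ± 0.22, adjusted p = 0.000197). Sgk1, a kinase known to respond to steroids, rose by 2.0 ± 0.27 (adjusted p = 0.00277), with 1.96 in wild type and 2.03 in HESKOL. Per1, a clock gene, rose by 1.65 ± 0.34, Klf9, a transcription factor, by 1.16 ± 0.2, and Cebpd, a C/EBP factor, by 2.27 ± 0.3. Pdk4, which blocks the entry of pyruvate into the citrate cycle, rose by 2.1 ± 0.39, with 2 wild-type treated arrays inside the untreated range. The metal-binding Mt1 and Mt2 rose by 2.37 ± 0.34 and 1.34 ± 0.33; the second probe of Mt1 gave 4.17.

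Some classical targets were less uniform. Fkbp5, a co-chaperone that dampens the receptor, ran from -0.65 to 1.19 (median -0.28) untreated and from -1.0 to 3.98 (median 3.37) treated; 5 treated arrays lay above all untreated ones and wild-type treated replicate 1 lay below them at -1.0. Its change was 2.74 ± 0.75 (adjusted p = 0.0389), and 3.54 without that array. Tsc22d3, known as GILZ, changed by 1.21 ± 0.45 and did not pass (adjusted p = 0.103), and here too that array was the lowest of all 12 at 2.40; without it the change was 1.65 (adjusted p = 0.00134). Lcn2, a siderophore-binding acute phase protein, rose by 2.8 ± 0.73 (adjusted p = 0.0335), but its value with the slide block was 0.02. The receptor gene itself, Nr3c1, ran from 2.35 to 2.78 (median 2.5) untreated and from 2.01 to 2.37 (median 2.24) treated, a change of -0.32 ± 0.13 (adjusted p = 0.138). Of 18 genes of the receptor and its handling, Fkbp5 rose and 2 fell: Akr1d1, a reductase that clears steroids (-0.85 ± 0.24), and Abcb1a, a drug efflux pump (-1.53 ± 0.33).

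Promoter sequences of 250 bases upstream of RefSeq gene starts (GRCm38.p6) were searched on both strands for the letters of the glucocorticoid response element, GNACA and TGTNC with 3 free bases between them. It occurred in 127 of 32851 windows (0.387%), in 11 of 746 windows of genes that rose (1.47%), in 5 of 1020 of genes that fell (0.49%) and in 33 of 13412 of tested genes that were not called (0.246%). Among the genes described here, Fam107a, Slc10a6, Sgk1, Mt1 and Serpina3n had a match, and their sequences are shown because these genes rose in both genotypes; capitals mark the match.
Fam107a, chr14:8309860-8309922, minus strand: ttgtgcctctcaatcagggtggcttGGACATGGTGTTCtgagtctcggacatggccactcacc
Slc10a6, chr5:103629529-103629591, minus strand: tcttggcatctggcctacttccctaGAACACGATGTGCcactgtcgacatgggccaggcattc
Sgk1, chr10:21993677-21993739, plus strand: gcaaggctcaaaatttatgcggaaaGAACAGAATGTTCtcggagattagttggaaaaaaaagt
Mt1, chr8:94178970-94179032, plus strand: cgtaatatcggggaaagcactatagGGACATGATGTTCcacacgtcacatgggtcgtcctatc
Serpina3n, chr12:104406605-104406667, plus strand: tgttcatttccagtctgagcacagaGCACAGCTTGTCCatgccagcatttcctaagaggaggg
The match began 118 bases upstream of the start of Fam107a (120 for its second start), 163 for Slc10a6, 188 for 1 of the starts of Sgk1, 94 for Mt1 and 78 for Serpina3n. A match describes the letters of these windows and is not a measured binding site.

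Genes that feed glucose production rose in part. Of 17 tested genes, 5 rose and none fell, with a median of 0.469 (0.109 in wild type and 0.593 in HESKOL). Ppargc1a, a coactivator that drives gluconeogenic genes, ran from -1.19 to 0.16 (median -0.6) untreated and from -0.34 to 3.41 (median 1.68) treated (2.08 ± 0.44, adjusted p = 0.0157), with wild-type treated replicate 1 the lowest treated array. Foxo1, a transcription factor of the fasting state, rose by 1.04 ± 0.24, and the aminotransferases Got1 and Gpt2 by 1.91 ± 0.39 and 1.17 ± 0.28. Leaving out single arrays left 2 to 5 members called. Both best known enzymes of the pathway missed the threshold. Pck1 ran from 6.91 to 8.16 (median 7.48) untreated and from 7.8 to 8.27 (median 7.98) treated, a change of 0.52 ± 0.22 (adjusted p = 0.139), and G6pc changed by 0.62 ± 0.38 (adjusted p = 0.307). Among 18 genes of glycolysis and glucose uptake 2 rose and 1 fell: Pfkfb3, which makes an activator of glycolysis, rose by 1.95 ± 0.29 and Ldha, lactate dehydrogenase, by 0.75 ± 0.2, while Pklr, the liver pyruvate kinase, fell by 1.32 ± 0.28. These counts ran from 1 to 2 and from 1 to 3 with single arrays left out. The 1 of 18 that fell is a share near the 5.96% of all tested genes that fell.

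Amino acid catabolism was higher in its called members: 8 of 23 tested genes rose and none fell, with a median of 0.655 (0.237 in wild type and 1.08 in HESKOL, 0.742 with the slide block). Beside Tat, Tdo2, Got1 and Gpt2 these held Aass, which starts lysine breakdown (1.62 ± 0.28), Sdsl, a serine dehydratase relative (2.14 ± 0.37), and Slc25a15, the mitochondrial ornithine carrier (1.95 ± 0.33). Of 14 amino acid transporters 3 rose. Slc38a2, a carrier of small neutral amino acids, ran from 3.14 to 3.85 (median 3.56) untreated and from 5.12 to 6.29 (median 5.91) treated (2.31 ± 0.2, adjusted p = 0.000176); Slc7a2, for cationic amino acids, rose by 1.55 ± 0.24 and Slc43a1, for large neutral ones, by 1.34 ± 0.37. In the insulin and mTOR signalling list, 4 of 21 rose and 2 fell, with Ddit4, Foxo3 (1.44 ± 0.36, with 0.26 from its second probe) and Sesn1 (1.44 ± 0.4) among the former; those that fell were Deptor, an mTOR inhibitor (-0.55 ± 0.14), and Sesn3, a sestrin (-0.92 ± 0.16), whose probes ran from -0.92 to 0.66. With single arrays left out, 1 to 5 members of that list rose and 1 to 4 fell, and 2 to 4 transporters and 6 to 11 catabolic genes rose.

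Genes of cholesterol synthesis and uptake were lower where they changed. Of 24 tested genes 10 fell and none rose, with a median of -1.36, -0.735 in wild type and -1.88 in HESKOL. The mean level of the 24 ran from 3.28 to 3.84 (median 3.53) on the untreated arrays and from 1.93 to 4.07 (median 2.07) on the treated ones. Wild-type treated replicate 1 had the highest level of all 12 arrays, 4.07, and the other 5 treated arrays lay at 2.42 or below; without it 18 of 24 fell and the median was -1.72. Leaving out 1 other array left as few as 2 called, and with the slide block the median was -0.286. Nsdhl, an enzyme of sterol demethylation, ran from 1.0 to 1.8 (median 1.35) untreated and from -1.61 to 1.92 (median -0.92) treated (-1.92 ± 0.41, adjusted p = 0.0164). Fdps and Idi1, which act on isoprenoid precursors, fell by 1.71 ± 0.38 and 1.69 ± 0.41. Insig1, the sterol sensor that holds back SREBP processing, fell by 1.76 ± 0.47.

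De novo lipogenesis had 2 of 17 members lower and none higher, with a median of -0.51. From 0 to 5 fell when single arrays were left out, 5 of them without wild-type treated replicate 1. Of all tested genes 4.83% rose and 5.96% fell, the shares to set beside the counts in this paragraph. Srebf1, the transcription factor that drives the pathway, ran from 6.17 to 6.86 (median 6.54) untreated and from 2.22 to 6.99 (median 2.94) treated; 5 treated arrays lay below all untreated ones and wild-type treated replicate 1 above them, at 6.99. It fell by 2.64 ± 0.62 (adjusted p = 0.0229), with -1.23 in wild type and -4.06 in HESKOL. Acly, which makes cytosolic acetyl-CoA, fell by 1.35 ± 0.36, while Acaca, acetyl-CoA carboxylase (-1.03 ± 0.31, adjusted p = 0.0526), and Elovl6, a fatty acid elongase (-1.16 ± 0.35, adjusted p = 0.0533), did not pass. Lipid droplet genes went the other way: 7 of 18 rose and 1 fell, with a median of 0.483. Cidec, a droplet fusion protein, ran from -2.12 to -0.12 (median -1.0) untreated and from -0.18 to 5.44 (median 2.27) treated and rose by 3.71 ± 0.72 (adjusted p = 0.0119), by 1.74 in wild type and 5.68 in HESKOL. Pnpla2, the main triglyceride lipase, rose by 1.5 ± 0.33, and G0s2, its inhibitor, ran from 3.24 to 4.37 (median 3.67) untreated and from -0.93 to 2.33 (median 1.03) treated and fell (-2.78 ± 0.53, adjusted p = 0.011). Among 21 genes of fatty acid oxidation 2 rose, the fatty acid hydroxylase Cyp4a14 (2.18 ± 0.6) and the acyl-CoA thioesterase Acot1 (2.07 ± 0.6); 4 rose without wild-type treated replicate 1 and none with some other arrays left out. Of 18 bile acid genes, only the export pump gene Abcc2 passed (0.56 ± 0.16), a share near the 4.83% of all genes that rose. Cyp7a1, the rate-limiting enzyme of bile acid synthesis, ran from 3.4 to 4.39 (median 4.12) untreated and from 2.01 to 5.01 (median 4.18) treated (-0.12 ± 0.44, adjusted p = 0.887).

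Genes of the unfolded protein response, which relieves misfolded protein in the endoplasmic reticulum, were higher where they changed: 11 of 24 tested genes rose and none fell, with a median of 0.645, 0.757 in wild type and 0.563 in HESKOL, and 0.369 with the slide block. Leaving out 1 array left 5 to 13 members called. The mean level of the 24 ran from 3.18 to 3.38 (median 3.27) untreated and from 3.45 to 4.52 (median 3.97) treated, with no overlap. Hspa5, the main chaperone of the endoplasmic reticulum, ran from 5.53 to 6.11 (median 5.96) untreated and from 6.43 to 7.82 (median 7.29) treated (1.27 ± 0.26, adjusted p = 0.0149). Manf, a secreted stress protein of that compartment, rose by 1.49 ± 0.31, Dnajc3, a co-chaperone, by 1.02 ± 0.23, and Atf6, a sensor of misfolded proteins, by 0.81 ± 0.15. Of 18 genes of the heat shock list, which holds cytosolic and mitochondrial chaperones and their helpers, 3 rose, namely Hspa1a (1.08 ± 0.32), Hspa8 (0.52 ± 0.13) and Bag3 (0.7 ± 0.17), with 0 to 8 called when single arrays were left out, 8 of them without wild-type treated replicate 1.

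Among the promoters of 21 genes of the unfolded protein response list, 8 (38.1%) held the ER stress response element, CCAAT and CCACG with 9 free bases between them, within 250 bases upstream, on either strand. Of all 27025 genes with a window, 35 did (0.13%). The list holds genes known for this element, so the share describes the list and not the response to dexamethasone. Called genes with a match were Hspa5, Dnajc3, Creld2, Syvn1, Hsp90b1 and Calr, of which the last 4 are named for their match, after their values were seen; they rose by 1.82 ± 0.45, 1.09 ± 0.27, 0.74 ± 0.18 and 0.55 ± 0.15. Short stretches from 4 of the 6 show how the element is placed, with the match in capitals.
Hspa5, chr2:34772000-34772068, plus strand: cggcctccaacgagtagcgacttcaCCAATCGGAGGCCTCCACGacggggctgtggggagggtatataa
Dnajc3, chr14:118937802-118937870, plus strand: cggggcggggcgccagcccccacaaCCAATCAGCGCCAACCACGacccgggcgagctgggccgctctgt
Creld2, chr15:88819495-88819563, plus strand: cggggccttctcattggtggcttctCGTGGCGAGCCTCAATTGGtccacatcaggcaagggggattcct
Syvn1, chr19:6046507-6046575, plus strand: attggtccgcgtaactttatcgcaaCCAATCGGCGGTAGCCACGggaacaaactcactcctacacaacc
In Creld2 the element lies on the opposite strand to the one printed. The matches began 65, 105, 126 and 44 bases upstream of the starts of Hspa5, Dnajc3, Creld2 and Syvn1.

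**Figure D3:**
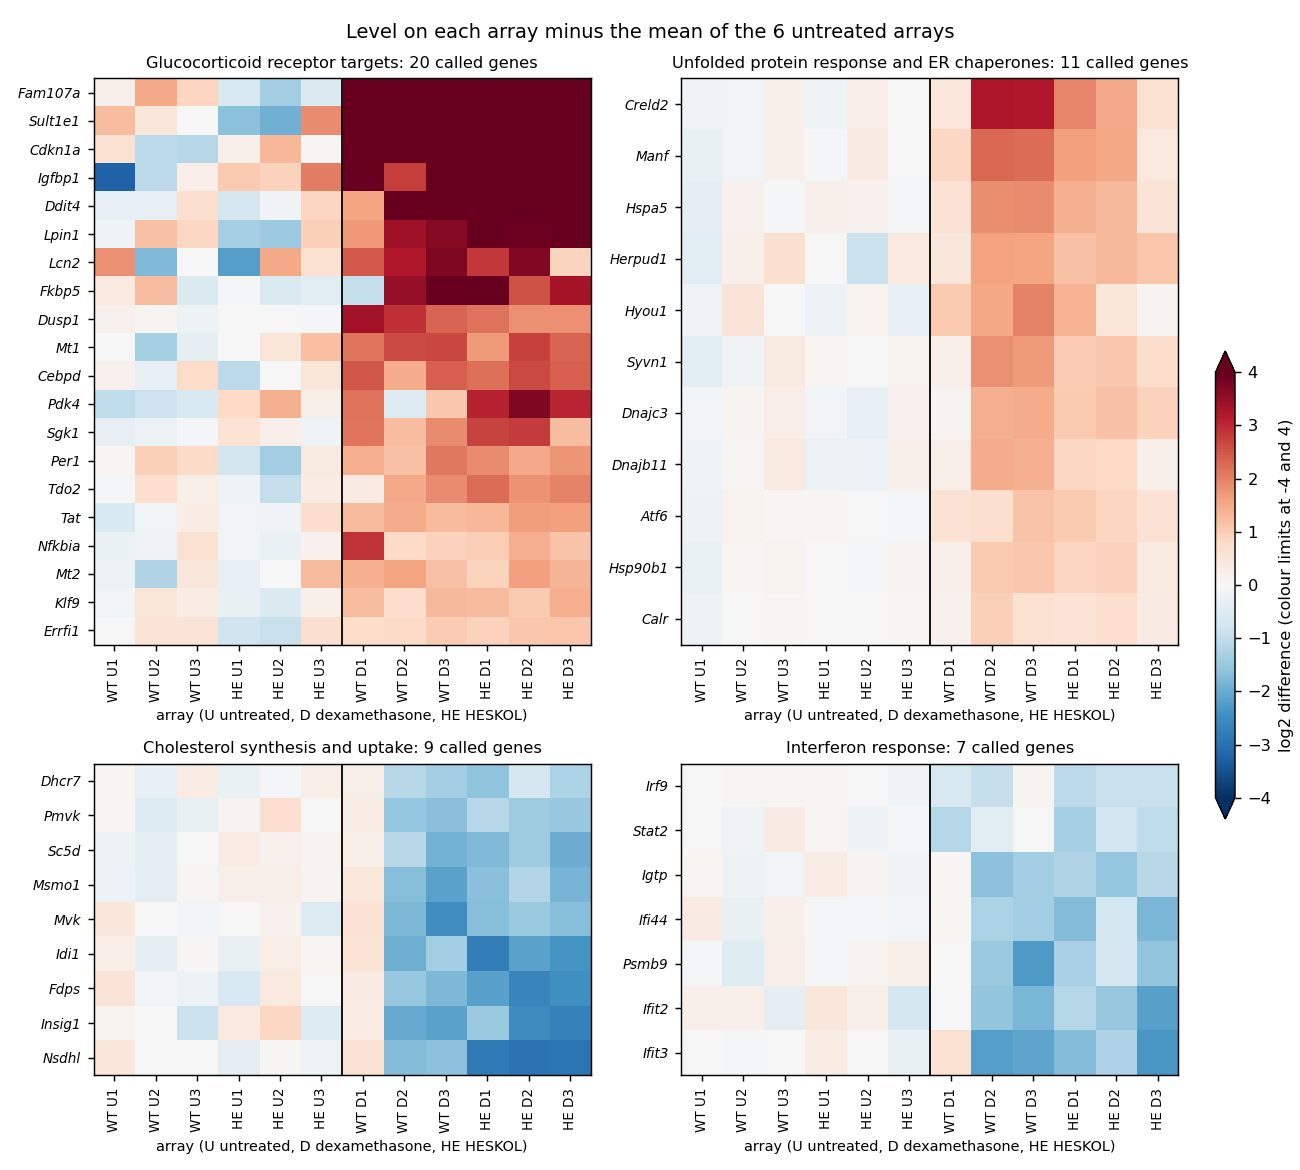
Called members of 4 gene lists (20 receptor targets, 11 of the unfolded protein response, 9 of the 10 of cholesterol synthesis and uptake, 7 of the interferon response) on each of the 12 arrays, coloured by log2 level minus the mean of the 6 untreated arrays, with colours limited at -4 and 4. In the cholesterol panel wild-type treated replicate 1 (WT D1) is coloured like the untreated arrays and the other 5 treated arrays are blue.

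Immediate early genes split by array. Of 22 tested, 6 rose and none fell, with a median of 0.699, but 1.63 in wild type and -0.039 in HESKOL. Their mean level ran from -0.319 to 0.581 untreated, was 3.82 on wild-type treated replicate 1 and ran from 0.459 to 1.11 on the other 5 treated arrays; without that array 7 rose and the median was 0.304. Junb, an AP-1 subunit, ran from 3.29 to 5.29 (median 4.02) untreated and from 5.42 to 7.5 (median 6.44) treated (2.22 ± 0.41, adjusted p = 0.00975). Jun, another, rose by 1.72 ± 0.38 and the small MAF factor Maff by 2.69 ± 0.57, with highest treated values of 2.60 and 5.36 on that array. What sets wild-type treated replicate 1 apart was not tested.

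Inflammatory genes went in both directions. In the NF-kB and TNF list, 4 of 19 rose and 2 fell, with a median of 0.009, which was negative without scaling, and opposite medians of 0.732 in wild type and -0.579 in HESKOL. Nfkbia, the inhibitor that holds NF-kB in the cytosol, ran from 4.07 to 4.95 (median 4.22) untreated and from 5.1 to 7.23 (median 5.41) treated (1.36 ± 0.33, adjusted p = 0.0259), and Vcam1, an adhesion receptor, rose by 1.39 ± 0.23. Tnf, the inflammatory cytokine, ran from -5.36 to -3.58 (median -4.41) untreated, where it was well above background on 6 arrays. On the treated arrays it ran from -8.08 to -6.39 (median -7.53) and was well above background on 2. The groups did not overlap and the fitted change was -2.94 ± 0.4 (adjusted p = 0.00289). With so few treated arrays above background, the size of the fall is uncertain. Nfkbie, another NF-kB inhibitor, fell by 1.31 ± 0.24. Of 22 cytokines and chemokines 2 rose and 3 fell, where 4.83% of all tested genes rose and 5.96% fell. Il1rn, the antagonist of interleukin-1, rose by 2.67 ± 0.74 and the chemokine Ccl6 by 1.07 ± 0.26, whereas Csf1, the macrophage growth factor, fell by 1.43 ± 0.27 and the chemokine Cxcl16 by 0.94 ± 0.26. With single arrays left out, 0 to 2 cytokine genes rose and 1 to 10 fell, and 1 to 4 genes of the NF-kB list rose and 2 to 4 fell; without wild-type treated replicate 1, 10 cytokine genes and 4 NF-kB genes fell. Of 22 acute phase genes 4 rose, among them Serpina3n (1.92 ± 0.36), Saa4 (1.03 ± 0.3) and the lipopolysaccharide-binding Lbp (1.16 ± 0.25), but the median of the list was 0.224 and turned to -0.108 with the slide block, as the value of Lbp did to -0.18.

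Innate sensing and interferon genes fell where they changed, with 1 exception. Of 21 Toll-like receptor and sensing genes 4 fell and 1 rose, with a median of -0.368. Cd180, a Toll-like receptor relative on B cells and macrophages, ran from -5.23 to -3.95 (median -4.74) untreated and from -8.81 to -7.09 (median -7.64) treated, where no array was well above background; it was at least 4.57-fold lower (adjusted p = 0.000678). Tlr1, which senses bacterial lipopeptides, ran from -3.13 to -1.4 (median -2.06) untreated and from -6.09 to -3.54 (median -4.78) treated (-2.58 ± 0.45, adjusted p = 0.00752), and Nod1, a peptidoglycan sensor, fell by 0.93 ± 0.15; Tlr7, an RNA sensor, rose by 1.04 ± 0.23. Of 24 interferon response genes 7 fell and none rose, with a median of -0.709, -0.584 in wild type and -0.944 in HESKOL; with the slide block it was -0.290. Their mean level ran from 0.834 to 1.27 untreated, was 1.52 on wild-type treated replicate 1 and ran from -0.321 to 0.389 on the other 5 treated arrays. Without that array 18 of 24 fell, and with single other arrays left out as few as 0 did. Igtp, an interferon-induced GTPase, ran from 3.56 to 4.04 (median 3.73) untreated and from 2.1 to 3.8 (median 2.48) treated (-1.13 ± 0.26, adjusted p = 0.0214). Ifit2, which blocks translation of viral RNA, fell by 1.37 ± 0.33, Ifi44 by 1.14 ± 0.28 and Irf9 and Stat2, subunits of the interferon-activated factor, by 0.72 ± 0.18 and 0.79 ± 0.2. In antigen presentation 1 of 16 fell, a share near the 5.96% of all genes, the peptide transporter subunit Tap1 (-0.94 ± 0.27). With single arrays left out 0 to 7 did, and 3 to 8 of the sensing genes, the highest counts being those without that array.

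Of 19 interferon response genes with a promoter window, 10 (52.6%) held the letters of the interferon-stimulated response element, GAAA and GAAA with 2 free bases between them, on either strand. Of all 27025 genes with a window, 936 did (3.46%), and here too the list holds genes known for the element. Igtp and Ifit3, which fell by 1.13 ± 0.26 and 1.5 ± 0.42, are shown, Ifit3 and Stat2, which also held a match, being named after their values were seen. Apart from Igtp, Ifit3 and Stat2, the listed genes with a match were not called, so the share describes the list and not the response to dexamethasone.
Igtp, chr11:58199497-58199555, plus strand: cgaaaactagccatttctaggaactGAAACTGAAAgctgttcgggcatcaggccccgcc
Ifit3, chr19:34583348-34583441, plus strand: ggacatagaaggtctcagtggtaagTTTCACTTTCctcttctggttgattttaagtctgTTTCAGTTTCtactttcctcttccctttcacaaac
Both matches of Ifit3, which began 156 and 122 bases upstream of its start, lie on the strand opposite to the one printed, and that of Igtp began 34 bases upstream.

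Levels of markers of immune cells moved with some of these genes. Of 17 T and B lymphocyte markers 2 fell, Ms4a1, the B cell antigen CD20 (-2.55 ± 0.64, adjusted p = 0.0285), and Cd3g, a T cell receptor subunit (-0.97 ± 0.29, adjusted p = 0.0497); without wild-type treated replicate 1, 14 did, and without at least 1 other array none. Their median was -0.864, but 0.053 with the slide block, which leans on wild-type treated replicate 1 and where Ms4a1 read 0.06. The mean level of the 17 ran from -3.18 to -2.50 untreated, was -2.66 on wild-type treated replicate 1 and was -3.60 or lower on the other 5. None of 14 macrophage and Kupffer cell markers passed limma's test (6 had an unadjusted p under 0.05, and 7 fell and 1 rose without that array), and their mean level ran from 2.70 to 3.51 untreated and from 2.17 to 3.33 treated. In such bulk samples fewer cells of a type and less RNA per cell cannot be told apart, and the part of these cells in the changes of Tnf, Cd180, Tlr1 and the interferon genes was not tested. Of 13 endothelial markers 1 rose and 1 fell, where 4.83% of all tested genes rose and 5.96% fell. Lyve1, a hyaluronan receptor of liver sinusoids and lymphatics, ran from 0.29 to 1.47 (median 0.93) untreated and from 2.32 to 4.12 (median 3.51) treated (2.42 ± 0.24, adjusted p = 0.000367). Kdr, the receptor of vascular growth factor, fell by 1.09 ± 0.28. Of 8 tested adipocyte markers 4 rose, Cidec, Pnpla2, Cidea (1.51 ± 0.33) and the fatty acid carrier Fabp4 (1.8 ± 0.27), and 5 of the 8 had a positive change. Without wild-type treated replicate 1, 4 rose and 3 fell. The markers Adipoq, Lep, Plin1 and Retn did not pass the filter on dim probes. None of 11 neutrophil, 13 stellate cell, 9 bile duct, 6 erythroid, 8 pancreas and gut or 7 muscle and mesothelial markers passed limma's test at the adjusted threshold, and 0, 2, 3, 1, 4 and 0 of them had an unadjusted p under 0.05; without wild-type treated replicate 1, 2 bile duct and 4 pancreas and gut markers fell and 1 stellate marker rose.

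Clock genes moved in both directions, 4 of 18 up and 3 down. Nfil3, a repressor of D-box genes, ran from 2.44 to 3.37 (median 2.72) untreated and from 4.15 to 5.42 (median 4.41) treated (1.81 ± 0.26, adjusted p = 0.00323), and Rora, an activator of Arntl, rose by 0.65 ± 0.17. Per3 fell by 1.97 ± 0.52, by nearly the same amount in wild type (-1.96) and HESKOL (-1.98). Per2 changed by -0.22 ± 0.22 (adjusted p = 0.545), Arntl by 1.68 ± 0.61 (adjusted p = 0.0945), Clock by 1.04 ± 0.33 (adjusted p = 0.061) and Dbp, an output gene, by -1.9 ± 0.62 (adjusted p = 0.0697). In the last 3 genes wild-type treated replicate 1 lay just outside the untreated range, on the side away from the other 5 treated arrays. The labels give no clock time for either group, so its part in these values was not tested. With single arrays left out 2 to 7 clock genes rose and 0 to 4 fell, the highest counts being those without that array. In the Notch and Hes list 3 of 17 fell (1 to 6 with single arrays left out) and 1 rose: the transcription factors Hes6, Hey1 and Heyl fell by 1.62 ± 0.32, 1.11 ± 0.29 and 1.53 ± 0.37, and the receptor Notch4 rose by 1.13 ± 0.22. The 1 of 17 that rose is a share near the 4.83% of all tested genes that rose. Hes1 changed by -0.68 ± 0.29 (adjusted p = 0.152), by -0.69 in wild type and -0.67 in HESKOL, and by 0.22 with the slide block.

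Transcription factor and hormone lists held further changes. Among Kruppel-like factors 3 of 14 rose, Klf9, Klf11 (0.95 ± 0.16) and Klf3 (0.73 ± 0.17), and 2 fell, with Klf12 at -0.61 ± 0.14. Of 14 C/EBP and liver-enriched factors, Cebpd and Cebpb (0.96 ± 0.19) rose. Of 24 nuclear receptors other than Nr3c1, Vdr, the vitamin D receptor, rose by 2.79 ± 0.75 from levels near background (2 of 6 untreated arrays above it), whereas Rxrg, a retinoid X receptor, fell by 1.98 ± 0.46, and Nr2f2 and Nr2f6, both COUP-TF family members, by 0.68 ± 0.17 and 0.74 ± 0.21; without wild-type treated replicate 1, 5 rose and 5 fell. With at least 1 other array left out none rose, and likewise none fell. Of all tested genes 4.83% rose and 5.96% fell. In the growth hormone and IGF axis, Igfbp1 and Igfbp2 (0.98 ± 0.26) rose and Igfals, which stabilises circulating IGF complexes, fell by 1.28 ± 0.27 (-0.15 with the slide block). Of 20 metal and oxidative stress genes, the 3 that rose were Mt1, Mt2 and the zinc and iron carrier Slc39a14 (1.68 ± 0.21). With at least 1 single array left out, no gene of the receptor handling or bile acid lists rose, and no Kruppel-like factor, conjugating enzyme, matrix gene or endothelial marker fell.

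Drug and hormone metabolism changed in single genes, where 4.83% of all tested genes rose and 5.96% fell. Cyp2b10, a drug-inducible cytochrome, ran from -1.17 to 1.69 (median -0.14) untreated and from 1.08 to 4.98 (median 3.71) treated and rose by 3.19 ± 0.65 (adjusted p = 0.0145). Cyp2b13, a close paralog, rose by 2.61 ± 0.77, a value that is uncertain since its second probe gave -1.42. Cyp1a2, which clears caffeine and other aromatic compounds, fell by 1.2 ± 0.28, and Cyp2r1, a vitamin D hydroxylase, by 1.16 ± 0.25; the other 17 of 21 did not pass. Of 19 conjugating enzymes, Sult1e1 and the amine sulfotransferase Sult1d1 (2.0 ± 0.49) rose and Sult1c2 (-1.75 ± 0.46; -0.17 with the slide block) and Ugt2b34 (-1.03 ± 0.27) fell. The water channel Aqp8 was the one of 7 aquaporins that passed: it ran from 4.47 to 5.09 (median 4.74) untreated and from -0.87 to 4.71 (median 0.35) treated and fell by 3.43 ± 0.71 (adjusted p = 0.0145), with wild-type treated replicate 1, at 4.71, inside the untreated range. Among 20 matrix genes 4 rose and 1 fell. Lox, a collagen cross-linker (1.9 ± 0.4), Ccn2, a matricellular growth factor (2.69 ± 0.67), and Timp3, a protease inhibitor (0.9 ± 0.25), were among those higher. Lama4, a laminin chain (-1.21 ± 0.3), was lower. With the slide block Lox read 0.50 and Ccn2 0.32. Lox was dim, from -9.12 to -6.99 (median -7.38) untreated and from -6.37 to -4.93 (median -6.0) treated. Stmn2, with untreated levels from -8.89 to -6.73, was not well above background there, so the size of the rise of Lox is uncertain. Of 18 apolipoprotein genes 1 rose, Abca1, the cholesterol exporter (0.87 ± 0.25), a share near the 4.83% of all genes that rose. With single arrays left out 0 to 4 rose, and 1 to 4 of the cytochromes, with 4 in each list without wild-type treated replicate 1. Of 22 genes of oxidative phosphorylation, 20 ribosomal proteins and 22 complement and coagulation genes none passed limma's test; 0, 0 and 1 had an unadjusted p under 0.05, and the medians were 0.172, 0.183 and 0.035, each of which turned negative under at least 1 other scaling.

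**Figure D4:**
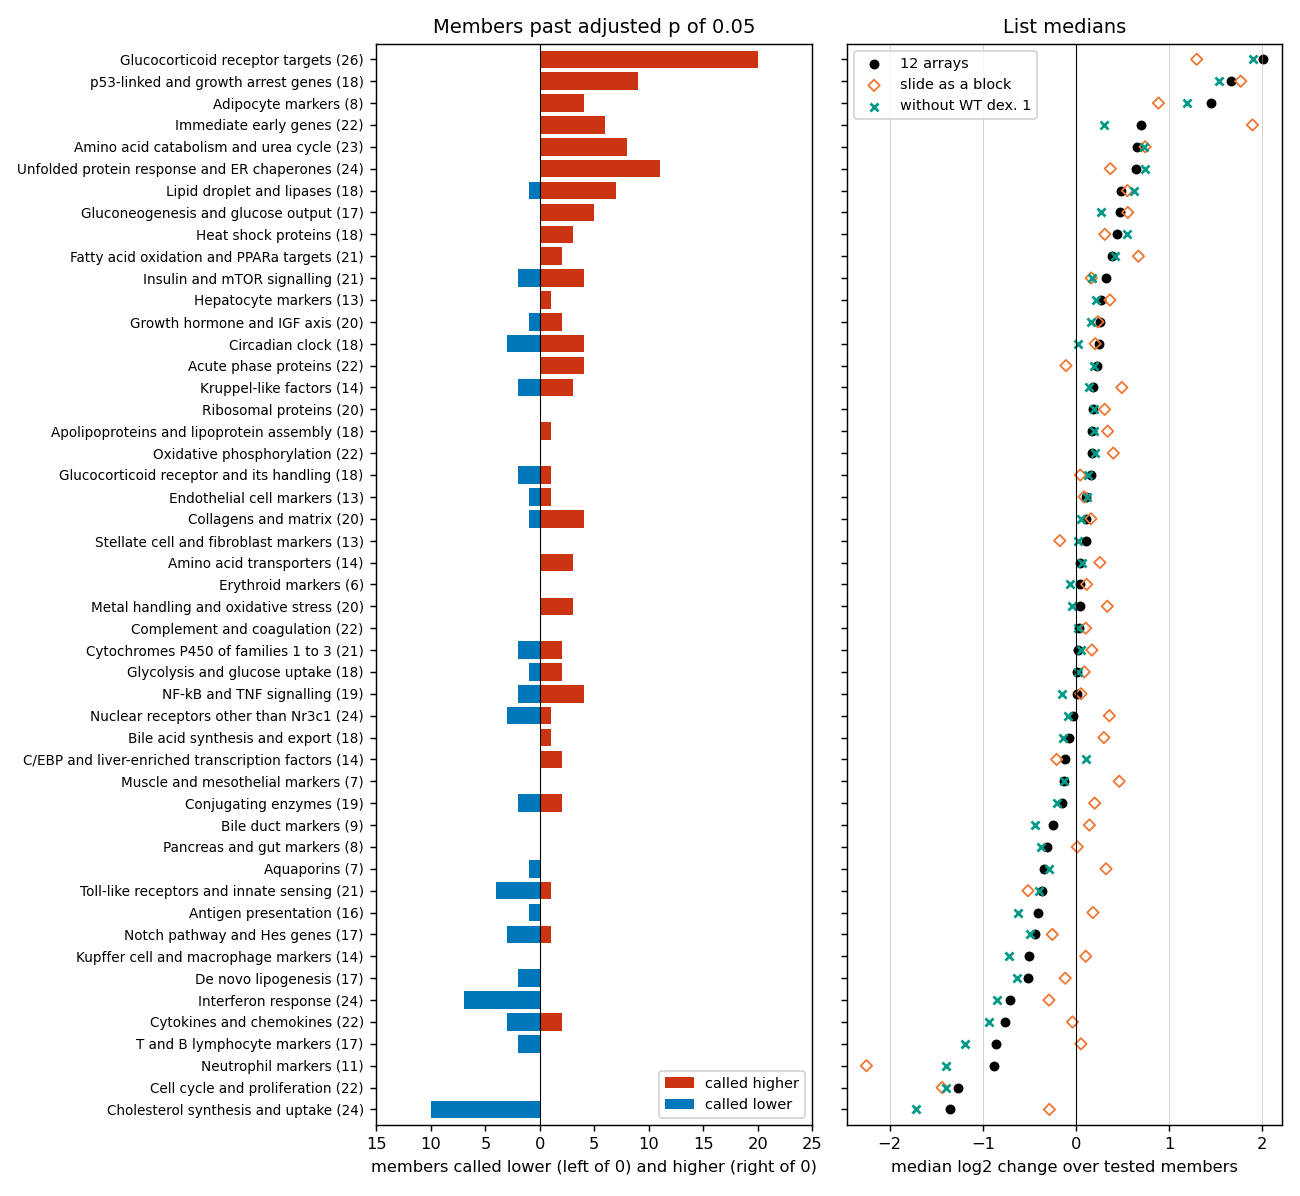
Left, number of tested members called higher (right of 0) and lower (left of 0) in each of 49 gene lists, with the number tested in parentheses; right, median log2 change of the tested members over 12 arrays, with slide as a block and without wild-type treated replicate 1. The receptor targets have the highest median, 2.0, and the cholesterol genes the lowest, -1.36, which moves to -0.286 with the slide block. The lists were chosen with earlier results of these data known, so their ranking is in part built in.

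None of the 15 largest decreases was in a member of the receptor target list, which follows from that list having no member called lower. Dclk3, a protein kinase, ran from -1.3 to -0.08 (median -0.38) untreated and from -6.73 to -1.76 (median -4.51) treated and fell by 3.59 ± 0.61 (adjusted p = 0.00665), by -2.29 in wild type and -4.9 in HESKOL. Pdxp, a phosphatase of vitamin B6, ran from -1.93 to 0.08 (median -1.16) untreated and from -5.23 to -2.63 (median -4.57) treated (-3.03 ± 0.43, adjusted p = 0.00329). Inhbe, a liver-secreted activin subunit, ran from 3.66 to 4.36 (median 3.89) untreated and from 0.1 to 2.42 (median 1.19) treated (-2.74 ± 0.42, adjusted p = 0.0042), with -3.02 in wild type and -2.45 in HESKOL. In none of these did a treated array reach the untreated range, which was a condition for all of the 15 largest decreases. Mid1ip1, an activator of acetyl-CoA carboxylase, fell by 2.44 ± 0.47, Paqr7, a membrane progestin receptor, by 2.42 ± 0.38, Asb2, a ubiquitin ligase subunit, by 2.38 ± 0.32, and Amer2, a regulator of Wnt signalling, by 2.38 ± 0.39, with -1.30 from its second probe. Cutal fell by 2.24 ± 0.32. Prr36, Lrp2bp and the orphan receptor Gpr12 were well above background on 2, 1 and 1 of the treated arrays, against 6, 6 and 5 untreated ones. All 3 were called lower, but the size of the change is not measured on so few arrays. With background corrected by normexp instead, Lrp2bp and Gpr12 read 0.09 and 0.09.

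Some genes had nearly equal fitted changes in both genotypes. Among genes that changed by at least 1 in both, the smallest differences between genotypes were found in Galnt18, Chd1l, Kyat1, Chac1 and Zfp428, which rose, and in Nmrk1, Cxcr6, Smpd3, Per3 and Nat8f5, which fell. Nmrk1, a kinase of the nicotinamide riboside route to NAD, ran from 2.33 to 3.02 (median 2.61) untreated and from 0.9 to 1.39 (median 1.22) treated, with changes of -1.42 in wild type and -1.43 in HESKOL; the difference between them had a standard error of 0.3. Cxcr6, a chemokine receptor of lymphocytes, changed by -1.71 in each genotype, with all treated arrays (from -4.11 to -2.96 (median -3.12)) below all untreated ones (from -2.02 to -1.23 (median -1.63)). Chac1, which degrades glutathione, rose by 1.92 and 1.9, Kyat1, a kynurenine aminotransferase, by 1.04 and 1.06, Chd1l, a chromatin remodeller, by 1.16 and 1.17, Galnt18, a glycosyltransferase, by 1.13 and 1.12, and Zfp428 by 1.16 and 1.13. Smpd3, a sphingomyelinase, changed by -2.63 and -2.62, with treated values from -4.66 to 0.56 and a standard error of the difference of 1.36 (1.09 for Per3), so for these genes the likeness is loosely measured. Nat8f5, an acetyltransferase family member, changed by -1.66 and -1.64. These genes were picked for a small difference, which is therefore a description.

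The difference between the genotypes' responses passed for 3 genes (0.0161%), of which 2 are among the 2012, and 1236 had an unadjusted p under 0.05. Slide was not balanced over this difference: the HESKOL treated arrays were all on slide 3, and wild-type treated replicates 1 and 2 were on slide 2. Wild-type treated replicate 1 enters it too. The part of slide or of that array in the difference was not tested. Phf11d, an interferon-inducible zinc finger gene, changed by 0.3 in wild type and 3.13 in HESKOL, a difference of 2.83 ± 0.29 (adjusted p = 0.0191). Sesn1, a p53-responsive sestrin, changed by 0.12 and 2.76, a difference of 2.63 ± 0.3 (adjusted p = 0.0241). Il1b, the interleukin-1 gene, named here as the third gene after its values were seen, was not called over both genotypes (-1.76 ± 0.71, adjusted p = 0.127) and changed by 0.52 in wild type and -4.05 in HESKOL. The next smallest p-values for the difference among the 2012 belonged to Cdc42ep5, Myom1 and Shisa9, which changed by 0.13, 0.42 and 0.79 in wild type and by 3.21, 2.38 and 2.67 in HESKOL, with adjusted p-values of 0.0937, 0.137 and 0.145.

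With slide as a block, the change of 82 of the 156 called genes named here was smaller by over 1.5 times or turned, and that of 6 was larger by over 1.5 times. Values near 0 there included those of Ccl6 (0.14), Slc43a1 (0.2), Kdr (-0.22), Rxrg (-0.23), Ifit2 (-0.22) and Cd3g (-0.22).

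**Figure D5:**
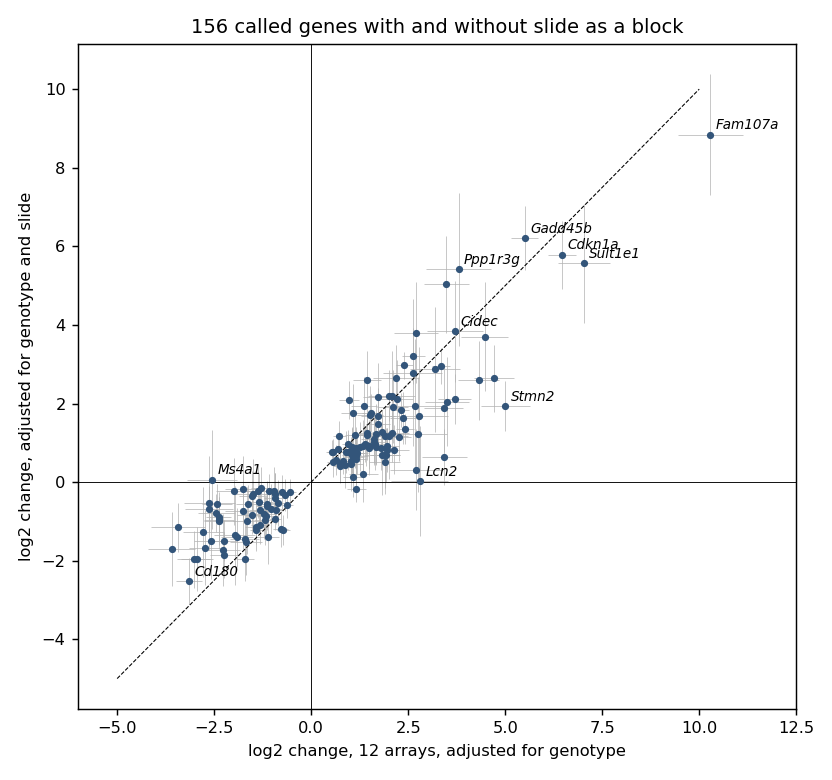
Log2 change of the 156 called genes named here, from the model with genotype (horizontal axis) and from the model with genotype and slide (vertical axis), with standard errors; the dashed line marks equal values. Fam107a, Sult1e1, Cdkn1a, Gadd45b and Ppp1r3g stay at 5.41 or above on the vertical axis, while Lcn2 and Ms4a1 are among the genes that lie near 0.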

How the data were processed

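RNA from 12 livers was hybridised to 12 one-colour Agilent mouse arrays, 1 per mouse. The authors deposited scanner output in which each spot has a processed signal intensity, made with Feature Extraction (9.5.3.1 per the file headers, 9.5 per the submitters' processing notes) from Cy3-labelled RNA, per the labels' protocols; the deposited value table held the same intensity values. The headers name the mm7 design annotation. Here the log2 intensity of non-control spots had each array's log2 75th percentile subtracted, and spots of a probe were averaged. Of 41174 probes, 7599 had no gene name; 23075 took theirs through a RefSeq accession, 9659 through a symbol or synonym, and 841 kept the name on the array. A gene was represented by its probe with the highest mean level, and entered the test if any group had that probe flagged as well above background in each of its 3 mice, with values on at least 10 arrays; 18650 of 27730 genes did.

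limma (3.58.1, in R 4.3.3) fitted genotype and treatment to each gene, with empirical Bayes variances, 9 residual degrees of freedom and Benjamini-Hochberg adjustment over all tested genes; a gene was called at an adjusted p under 0.05. A model of 4 group means gave the change within each genotype and their difference. The fit was tested on simulated data with independent noise on each array. The simulated data held no slide effect and no outlying array, so that test does not bear on either. The series' design text gives 3 mice per group. The number of arrays limits the precision, and a probe not well above background in a group has only a bound there. Tables and figures were made with Python 3.11.15, pandas 2.3.3, numpy 2.4.6 and matplotlib 3.10.9.

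Named genes were the 15 largest increases and 15 largest decreases without overlap of the groups, the 5 rising and 5 falling genes most alike in both genotypes, a fixed set of glucocorticoid, metabolic and clock genes, up to 4 members of each of 49 gene lists by p, and the 5 called genes with the smallest p for a difference between genotypes. Some genes that these rules name are not reported here. The members and lists were chosen with earlier results of these data known. Promoter windows came from RefSeq (GRCm38.p6) and were matched by symbol. Alternatives covered background correction, scaling, probe filters, slide, replicate number, the model, array weights, the call rule and each array left out.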

Additional observations from a re-analysis of the deposited data

Results flagged for a closer look

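The difference between the genotypes' responses, HESKOL minus wild type, passed for 3 genes: it was -4.57 for Il1b, 2.83 for Phf11d and 2.63 for Sesn1 on the log2 scale. Slide was not balanced over the groups compared, and its part in these differences was not tested.

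In some called genes a single array lay far from the other 5 of its treatment arm, by a gap that chance alone exceeds in about 1 in 20 groups. Both arms of each called gene named here were examined where the arms did not overlap, so some such gaps are to be met by chance. Genes whose arms overlapped, among them Fkbp5, Srebf1 and Aqp8, were not examined. Most of these arrays were wild-type treated replicate 1. It was the lowest treated array for Fam107a (-1.9), Cdkn1a (2.01), Ddit4 (4.07) and Lpin1 (4.68), and the highest for Foxo3 (-2.46), Jun (2.6), Maff (5.36) and Nfkbia (7.23). Wild-type treated replicate 2 was the lowest treated array for Cebpd (4.64), Gadd45g (5.52) and Igfbp1 (6.69). Among untreated arrays, wild-type replicate 1 was the lowest for Calr (4.45) and Ppp1r3g (-3.37), and HESKOL replicate 1 for Stmn2 (-8.89), where no untreated array was well above background.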

How the results depend on the processing

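Against 901 genes higher and 1111 lower, the counts were 608 and 587 with normexp background correction, 362 and 2083 without scaling, 566 and 728 without the filter on dim probes, 0 and 0 with slide as a fixed block, 2125 and 2603 with array weights, 21 and 1 with a minimum log2 change of 1, and 169 and 127 at an adjusted p of 0.01. Without scaling the median of all genes was -0.211 and 14.8% of calls were higher, against 44.8%; with normexp the median was 0.145. Leaving out 1 array gave 383 to 1882 higher and 444 to 2448 lower genes, and 827 to 4329 called genes with the same direction in both genotypes. The other settings stayed within 1.5 times. With slide as a block Cyp7a1 turned to 1.70, Dbp to 0.23, Hes1 to 0.22, Lbp to -0.18 and Ms4a1 to 0.063. With normexp Gpr12 turned to 0.088 and Lrp2bp to 0.091. With 1 array left out Cyp7a1 ran from -0.40 to 0.27. The cause of these turns was not tested. Same-numbered arrays did not all deviate together (correlations from -0.4 to 0.623), so no pairing was taken. Differently numbered arrays of different groups had correlations from -0.709 to 0.71, and what they share was not tested. The replicate block gave 825 higher and 1129 lower genes. Slide and treatment overlapped on slide 2 alone, where genotype differed too, so the slide's part cannot be told apart from these arrays. Dim probes such as Stmn2, Pcsk1 and Cd180 have only bounds.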
